A study of Mus musculus with 12 samples.

Results

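Collagen genes were taken as all genes whose array annotation symbol reads Col, a number, a and a number, which gave 44 of the 19937 genes measured. They comprise 11 fibrillar chains, the 6 chains of basement membrane type IV, and 27 chains of other types (9 FACIT, 6 beaded filament, 4 transmembrane, 3 short-chain network, 2 multiplexin, 1 anchoring fibril and 2 remaining). The RNA came from Lewis lung carcinoma, a transplantable mouse lung tumour line, resected from the lungs of female C57BL/6 mice and measured on 12 Affymetrix arrays. There were 4 groups of 3 arrays: wild type hosts kept in air, wild type hosts given smoke, RelA/p65 deficient hosts kept in air and RelA/p65 deficient hosts given smoke. RelA/p65 belongs to the NF-kB transcription factors. The labels state neither how the deficiency was made nor the age of the mice, and the series title speaks of myeloid cells. Whether the arrays of a group came from separate animals is not stated, and the p-values rest on array-to-array spread alone, which may be technical.

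Collagens are secreted proteins built as triple helices of 3 chains, each chain from a gene of its own. Fibrillar collagens (types I, II, III, V, XI, XXIV, XXVII) form the cable-like fibrils of the interstitium. Type IV forms sheet-like networks in basement membranes, where the α1 and α2 chains are found in most tissues, and the α3, α4 and α5 chains make a separate network that the alveolar basement membrane also holds. Type VI chains α1, α2 and α3 assemble into beaded filaments, FACIT collagens sit on the surface of fibrils, and multiplexins such as type XVIII lie in basement membrane zones. In lung tumours collagen is made by fibroblasts and by other stromal, vascular and tumour cells.

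Levels below are log2 expression values as the authors deposited them, and a change is a log2 difference ± SE from limma, a linear model fitted to all genes, with p-values adjusted by Benjamini-Hochberg over all 19937 genes. A gene "rose", "fell", or was higher or lower, where its adjusted p was under 0.05. Levels of different genes are not compared, because each probe set has its own sensitivity. The tissue is a mixture, and fewer cells of a type and less RNA per cell cannot be told apart. Rela itself was not lower in the deficient arrays (means of 9.42 and 9.31 in air and smoke) than in wild type (9.22 and 9.08), so the genotype label has no check in this transcript, and "deficient" below means the arrays so labelled. Markers of alveolar epithelium were measured in every array, with a mean over 9 genes of 10.87 to 11.09 in wild type air, 8.47 to 8.67 in wild type smoke, 11.81 to 11.87 in deficient air and 11.74 to 11.89 in deficient smoke. Wild type smoke replicate 1 stood apart: it was the lowest of its group for 81.8% of collagen genes, against 44.5% of all genes.

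With smoke in wild type hosts, Col1a2 and Col4a5 fell and Col8a1 rose in the same arrays. Col3a1 was taken from another comparison, as the fibrillar chain with the largest fall in deficient air. Col1a1, which rose with smoke in wild type hosts, had no entry in the promoter table used and is not shown. The stretches upstream of Col1a2, Col3a1, Col8a1 and Col4a5 are shown. They are the 250 bases before the start annotated by RefSeq (GRCm38.p6), read 5′ to 3′ on the gene's strand, and capitals mark 3 motifs, which are TATAAA, the letters of the TATA box, then CCAAT, and GGGCGG, the letters of a GC box, searched on both strands.
Col1a2, chr6:4505368-4505617, plus strand: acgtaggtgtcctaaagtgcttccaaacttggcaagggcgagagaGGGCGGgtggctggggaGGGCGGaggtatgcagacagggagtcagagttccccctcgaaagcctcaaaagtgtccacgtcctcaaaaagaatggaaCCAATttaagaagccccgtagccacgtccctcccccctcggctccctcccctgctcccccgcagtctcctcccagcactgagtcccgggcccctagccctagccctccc
Col3a1, chr1:45311288-45311537, plus strand: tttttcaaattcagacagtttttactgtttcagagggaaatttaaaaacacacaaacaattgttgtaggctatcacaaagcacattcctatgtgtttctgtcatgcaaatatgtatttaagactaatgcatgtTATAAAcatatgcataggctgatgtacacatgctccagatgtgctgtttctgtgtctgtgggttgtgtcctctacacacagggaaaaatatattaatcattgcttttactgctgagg
Col8a1, chr16:57754738-57754987, minus strand: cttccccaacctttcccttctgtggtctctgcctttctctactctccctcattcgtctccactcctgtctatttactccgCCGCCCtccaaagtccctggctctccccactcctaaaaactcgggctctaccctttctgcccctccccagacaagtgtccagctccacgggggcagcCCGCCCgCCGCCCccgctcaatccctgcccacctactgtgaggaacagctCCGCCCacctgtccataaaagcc
Col4a5, chrX:141475169-141475418, plus strand: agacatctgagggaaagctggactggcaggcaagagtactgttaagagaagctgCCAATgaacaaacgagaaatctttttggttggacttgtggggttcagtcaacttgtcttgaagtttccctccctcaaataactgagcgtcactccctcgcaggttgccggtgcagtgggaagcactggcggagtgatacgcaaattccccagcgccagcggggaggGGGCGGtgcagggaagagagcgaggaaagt

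RefSeq's promoter table matched 35 of the 44 collagen genes, and the first promoter listed was counted for the 3 genes with several. GGGCGG lay in the counted window of 21 genes (60%) against 32.7% of all 32851 promoters, CCAAT in 12 (34.3% against 33.8%) and TATAAA in 5 (14.3% against 12.4%). These matches describe letters and show no binding. Col4a1 and Col4a2 are head-to-head neighbours on opposite strands. Their annotated starts are 21 bases apart and placed so that the transcripts overlap there. Col4a5 and Col4a6 are also neighbours on opposite strands, but they run away from each other, with 1343 bases between their starts. Col4a1 and Col4a2 had the same sign in all 4 comparisons below. Col4a5 fell with smoke in wild type hosts, while Col4a6 did not pass the test.

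The first comparison, smoke against air in wild type hosts, asked which collagens differed with smoke in the tumour tissue. Of 44 collagen genes 21 passed the test, 14 higher and 7 lower, where 29.0% of all genes passed (15.0% higher and 14.0% lower). The median difference was 0.26, against 0.08 over all genes. Fibrillar genes had 4 higher and 2 lower of 11 (median 0.26), basement membrane genes 2 higher and 3 lower of 6 (median -0.37) and other types 8 higher and 2 lower of 27 (median 0.25). Both directions occurred within single collagen types, and in type I the split ran between chains of 1 molecule. The 2 groups did not overlap for 20 of 44 collagen genes, against 36.9% of all genes.

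The genes of type I collagen, the main fibril of connective tissue, moved apart. Col1a1, which encodes its α1 chain, was at 10.68, 10.64 and 10.31 in wild type air and at 11.73, 11.88 and 11.88 in wild type smoke. Every smoke array lay above every air array, a rise of 1.29 ± 0.09 (2.45-fold; adjusted p = 1.86e-07). Col1a2, which encodes the α2 chain of the same molecule, was at 10.30, 10.32 and 10.27 in wild type air and at 9.24, 9.16 and 9.33 in wild type smoke. All 3 smoke arrays lay below the air arrays, a fall of 1.06 ± 0.06 (2.08-fold; adjusted p = 1.73e-08). Within an array, the Col1a1 value minus the Col1a2 value was 0.24 ± 0.18 (SD, n = 3) in wild type air and 2.59 ± 0.12 in wild type smoke. It changed by 2.35 between the groups, which did not overlap. Each gene is read by 1 probe set, and the size of the difference depends on their responses. Col3a1, the gene of type III collagen, which is built from 1 kind of chain, was 0.24 ± 0.09 higher in smoke without passing the test, with 12.40 to 12.61 in air and 12.72 to 12.76 in smoke.

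Type V collagen, which sits inside type I fibrils and sets their width, split as well. Col5a1 was at 9.02, 9.10 and 8.99 in air and 9.47, 9.36 and 9.45 in smoke, a rise of 0.39 ± 0.07 without overlap. Col5a3 rose by 0.70 ± 0.10, from 7.66 to 7.97 in air to 8.49 to 8.57 in smoke. Col5a2 was at 7.67, 7.60 and 7.66 in air and 7.34, 7.51 and 7.39 in smoke, a fall of 0.23 ± 0.06. The Col5a2 call was lost with each array centred on its median (-0.138; adjusted p = 0.0791), with quantile normalization (-0.139; adjusted p = 0.073), in a fit of these 6 arrays alone (adjusted p = 0.088). It was also lost when wild type air replicate 3 was left out (adjusted p = 0.0504). The other 5 fibrillar genes, the cartilage chains Col2a1, Col11a1 and Col11a2 and the genes Col24a1 and Col27a1, were 0.26 to 0.34 higher, and of these Col11a2 alone passed. It no longer passed in the fit of the 6 arrays alone (adjusted p = 0.097), nor without wild type air replicate 1 or 3 or wild type smoke replicate 2 or 3 (adjusted p = 0.0536, 0.106, 0.0708 and 0.0844).

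**Figure D1:**
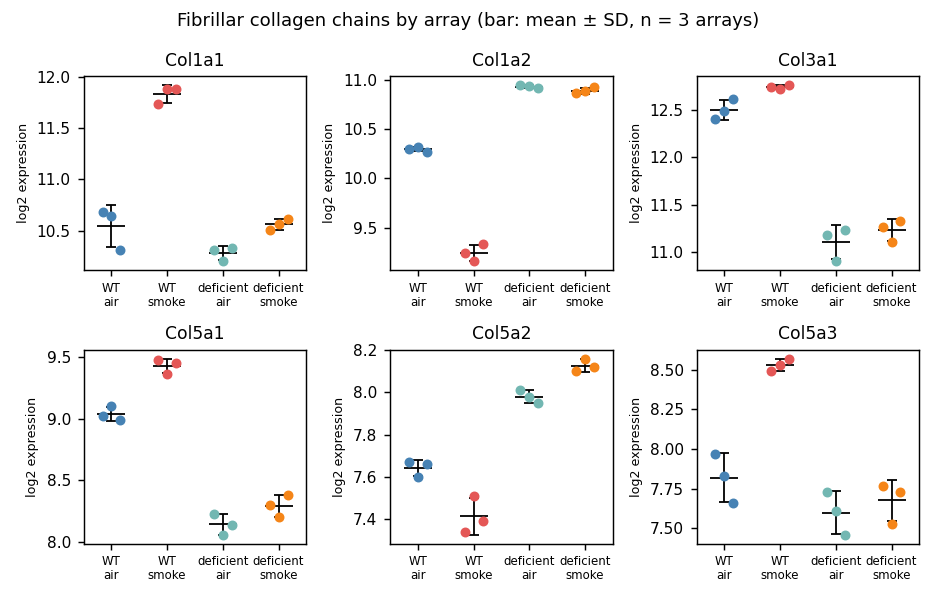
Log2 expression (vertical axis) of 6 fibrillar collagen genes in each array, by group (WT, wild type), with bars for mean ± SD over 3 arrays. Col1a1 and Col5a3 were highest in wild type smoke, Col1a2 and Col5a2 were lowest there, and Col3a1 and Col5a1 separated the 2 host genotypes.

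Type IV collagen of basement membranes divided by network. Col4a1 was at 9.93, 9.85 and 9.95 in wild type air and 10.27, 10.26 and 10.23 in wild type smoke, a rise of 0.34 ± 0.06 (adjusted p = 8.45e-04). Its partner Col4a2 rose by 0.28 ± 0.06, from 10.13, 10.14 and 10.16 to 10.37, 10.44 and 10.49. The 2 groups did not overlap for either chain. Col4a3, Col4a4 and Col4a5, the chains of the second network, fell. Col4a3 was at 7.93, 8.15 and 8.15 in air and 6.94, 7.71 and 7.39 in smoke, a fall of 0.73 ± 0.14 (adjusted p = 0.00207) in which smoke replicate 1 was lowest, and of 0.38 with array weights. Col4a4 was at 7.76, 7.71 and 7.56 in air and 7.01, 7.09 and 7.29 in smoke, a fall of 0.55 ± 0.08 without overlap. Col4a5 was at 7.78, 7.85 and 7.96 in air and 6.81, 7.33 and 7.14 in smoke, a fall of 0.77 ± 0.11 (adjusted p = 1.00e-04), also without overlap. Col4a6, at 6.20 to 6.80 in the 6 arrays, was 0.20 lower without passing. The mean of Col4a3, Col4a4 and Col4a5 minus that of Col4a1 and Col4a2, taken within each array, moved from -2.16 ± 0.06 in air to -3.15 ± 0.22 in smoke, a change of -0.997, and of -0.873 without wild type smoke replicate 1.

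**Figure D2:**
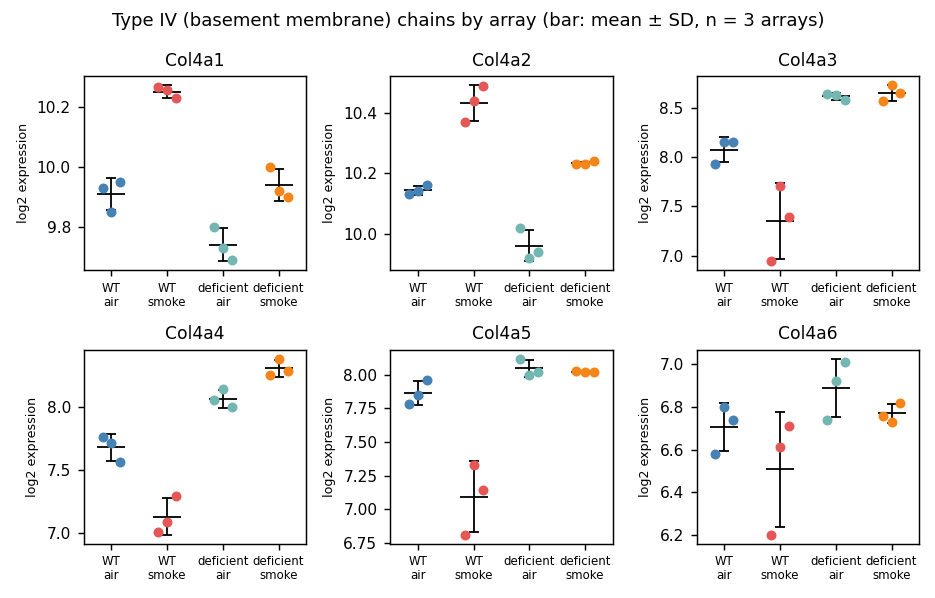
Log2 expression (vertical axis) of the 6 type IV collagen genes in each array, by group (WT, wild type), with bars for mean ± SD over 3 arrays. Col4a1 and Col4a2 were highest in wild type smoke, where Col4a3, Col4a4 and Col4a5 were lowest.

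Among other types, the 3 chains that build type VI filaments rose together. Col6a3 was at 10.47, 10.28 and 10.06 in wild type air and 11.14, 11.16 and 11.10 in wild type smoke, a rise of 0.86 ± 0.09 (1.82-fold; adjusted p = 1.20e-05). Col6a1 rose by 0.44 ± 0.07, from 11.07, 11.12 and 11.16 to 11.51, 11.53 and 11.64, and Col6a2 by 0.62 ± 0.06, from 9.84, 9.81 and 9.75 to 10.42, 10.36 and 10.48. None of the 3 overlapped between groups. Col6a4, Col6a5 and Col6a6, later members of the type, were 0.38, 0.20 and 0.25 higher, and Col6a4 passed. Its call was lost without wild type air replicate 3 (adjusted p = 0.075), without wild type smoke replicate 2 (adjusted p = 0.0701) and in the fit of 6 arrays (adjusted p = 0.0635).

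Col8a1, a short-chain collagen of vessel walls, had the largest rise outside the fibrillar genes: 8.39, 8.09 and 8.10 in wild type air against 9.40, 9.43 and 9.36 in wild type smoke, or 1.20 ± 0.11 (2.30-fold; adjusted p = 2.94e-06). The anchoring fibril gene Col7a1 rose by 0.52 ± 0.10, from 7.70 to 8.10 in air to 8.27 to 8.56 in smoke. Col14a1, a FACIT collagen of type I fibrils, fell by 0.48 ± 0.06, from 8.36, 8.39 and 8.42 to 7.88, 7.91 and 7.93. The related Col12a1 fell by 0.20 ± 0.07, a call lost with median centring (-0.114; adjusted p = 0.164), with quantile normalization (-0.112), with an intensity trend, with the replicate number as a block, in the fit of 6 arrays alone, and when any 1 wild type air array, wild type smoke replicate 2 or deficient air replicate 2 was left out (adjusted p = 0.0519 to 0.142 when 1 array was left out). Col17a1 and Col19a1, with rises of 0.34 and 0.26, overlapped between groups. Col17a1 lost its call in the fit of 6 arrays and without any 1 of wild type air replicates 1 and 3 and wild type smoke replicates 2 and 3. Col19a1 held only with median centring, quantile normalization, array weights, the intensity filter, either other treatment of probe sets, or without wild type air replicate 2, wild type smoke replicate 1 or deficient smoke replicate 2. The multiplexins Col18a1 and Col15a1 were 0.28 and 0.13 higher without passing.

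**Figure D3:**
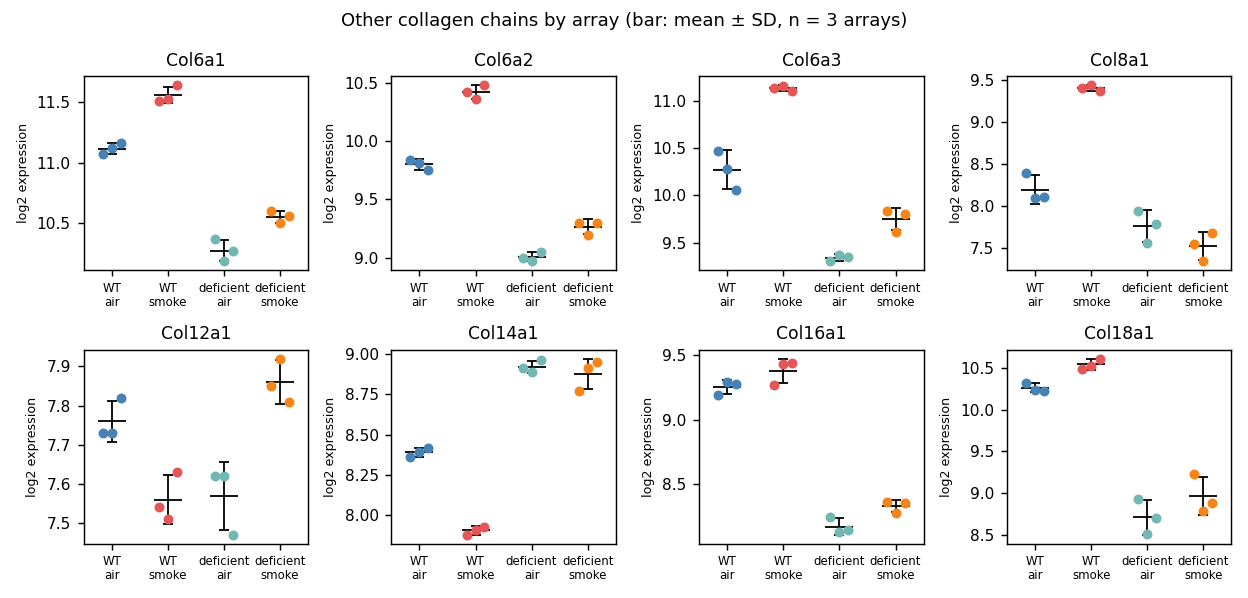
Log2 expression (vertical axis) of 8 other collagen genes in each array, by group (WT, wild type), with bars for mean ± SD over 3 arrays. The type VI genes and Col8a1 were highest in wild type smoke, Col14a1 was lowest there, and Col16a1 and Col18a1 were lower in both deficient groups.

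The number of rises depended on the arrays kept and on normalization. Leaving out 1 array other than wild type smoke replicate 1 gave 10 to 19 rises, against 14 in the full fit. Without wild type smoke replicate 1, 37 collagen genes passed, 30 higher and 7 lower, which included all 21 of the full fit. Over all 19937 genes, 8824 passed without that array, against 5778 in the full fit. The 16 added genes had mean levels between 5.80 and 8.78, and in them replicate 1 lay below the mean of the other smoke arrays by a median of -0.5 (all genes, -0.02). Col2a1, for example, was at 7.79 in replicate 1 and at 8.45 and 8.46 in replicates 2 and 3. With each array centred on its median over the 19937 genes, 31 collagen genes were higher and 5 lower. With quantile normalization of those genes 25 were higher and 5 lower, and with array weights 30 and 7. Calls over all genes were 9852, 6995 and 10211 in these fits. Array medians over the 19937 genes were 7.40 to 7.41 in wild type air and 7.26 to 7.36 in wild type smoke. Over all deposited probe sets they were 6.80 to 6.86 and 6.78 to 6.88, and overlapped. What set wild type smoke replicate 1 apart was not tested.

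Markers of several cell types moved in the same arrays. Of 10 endothelial markers all were lower (mean level 9.86 to 10.05 in wild type air and 8.76 to 8.83 in smoke), as were all 9 alveolar epithelial markers. Of 8 smooth muscle and pericyte markers 5 were lower and 1 higher (8.41 to 8.52 in air, 7.56 to 7.84 in smoke), and all 7 macrophage markers measured were higher (9.41 to 9.59 in air, 10.42 to 10.54 in smoke). Airway epithelial markers had 4 of 6 lower (9.42 to 9.63 in air, 7.05 to 7.26 in smoke) and mesothelial markers 3 of 4 lower and 1 higher (7.85 to 7.97 and 7.08 to 7.29). The 8 fibroblast markers went both ways, 4 higher and 3 lower, with a mean level of 9.38 to 9.55 in air and 9.33 to 9.36 in smoke. Cartilage markers had 2 higher and 1 lower of 7, with a mean level of 6.31 to 6.44 in air and 6.20 to 6.57 in smoke. The part of these cell types in the collagen differences was not tested.

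Genes that act on collagen were then counted in the same comparison. Of 29 genes for collagen synthesis and processing 5 rose and 8 fell: Pcolce2, an enhancer of procollagen cleavage, fell by 1.98 ± 0.09, the crosslinking oxidase Loxl1 by 1.04 ± 0.07 and the prolyl hydroxylase P3h2 by 1.02 ± 0.09, while the lysyl hydroxylase Plod1 rose by 0.55 ± 0.06. Of 9 receptors and uptake genes 2 rose and 3 fell, with the collagen-binding integrin gene Itga1 at -1.51 ± 0.08, Itga10 at 0.61 ± 0.09 and the endocytic receptor Mrc2 at -0.87 ± 0.07. Of 15 other basement membrane genes 2 rose and 6 fell, among them the laminin genes Lama3, Lama2 and Lamb3 at -1.74, -1.47 and -0.99 and nidogen 2, Nid2, at 0.77. Of 21 other fibril-associated matrix genes 6 rose and 12 fell, among them periostin, Postn, at -2.94 ± 0.12, the small proteoglycans Prelp and Bgn at -2.81 ± 0.13 and -1.39 ± 0.07, and the microfibril-associated gene Mfap4 at -1.78 ± 0.08. Of 8 collagen-cleaving proteases 3 rose and 3 fell, with the gelatinase Mmp2 at -2.38 ± 0.08 and Mmp9 at 0.91 ± 0.22. Mmp13 was among those that fell, from a mean of 9.27 in wild type air to 7.52 in wild type smoke.

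Smoke exposure within the deficient arrays gave small differences. Of 44 collagen genes 5 rose and none fell (1 fell at an unadjusted p under 0.05), where 2.41% of all genes passed (0.692% higher and 1.72% lower). The median was 0.04, against -0.00 over all genes. By limma no fibrillar gene passed (2 of 11 higher at an unadjusted p under 0.05), 1 of 6 basement membrane genes rose and 4 of 27 other genes rose. Fibrillar differences ran from -0.04 to 0.28, the latter for Col1a1, at 10.31, 10.20 and 10.33 in deficient air and 10.51, 10.56 and 10.61 in deficient smoke. Col1a2, at 10.91 to 10.94 in air and 10.86 to 10.92 in smoke, differed by -0.04 ± 0.06.

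The chains of type VI filaments were the largest share of these rises. Col6a3 was at 9.30, 9.37 and 9.35 in deficient air and 9.83, 9.61 and 9.80 in deficient smoke, a rise of 0.41 ± 0.09 (adjusted p = 0.039). Col6a1 rose by 0.28 ± 0.07, from 10.37, 10.19 and 10.27 to 10.60, 10.50 and 10.56, and Col6a2 by 0.26 ± 0.06, from 9.00, 8.97 and 9.05 to 9.30, 9.19 and 9.30. Col4a2 rose by 0.27 ± 0.06, from 10.02, 9.92 and 9.94 to 10.23, 10.23 and 10.24, and Col12a1 by 0.29 ± 0.07, from 7.62, 7.62 and 7.47 to 7.85, 7.92 and 7.81. The groups overlapped for none of the 5, and for 12 of 44 collagen genes in all they did not overlap, against 22.7% of all genes. Col4a1 was 0.20 higher without passing, and Col4a3, Col4a4 and Col4a5 differed by 0.04, 0.24 and -0.02. Alveolar epithelial markers (none of 9 passed) and endothelial markers (1 of 10 higher) were measured in the same arrays, and mesothelial markers had 2 of 4 lower and macrophage markers 2 of 7 lower. Fibroblast markers had 1 of 8 higher, and none of 8 smooth muscle and pericyte, 6 airway or 7 cartilage markers passed. Their part in the rises was not tested.

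These 5 calls sat close to the limit. With the replicate number as a block 1 collagen gene passed, where 440 of all genes did. Leaving out 1 of the 6 arrays compared left 1 gene (without deficient air replicate 1 or deficient smoke replicate 2) or 0 (without deficient air replicate 2 or 3 or deficient smoke replicate 1 or 3), and leaving out a wild type array, which enters through the shared spread, left 2, 1 and 3 (air replicates 1, 2 and 3) or 2 (smoke replicate 2). Over all genes 261 to 320 passed without 1 of the 6 arrays compared, against 481 in the full fit. The collagen differences themselves moved little, for Col6a3 from 0.362 to 0.475. Among related genes, 1 of 29 processing genes rose and 2 fell, with the crosslinking oxidase Lox at 0.53 ± 0.11, the isomerase Fkbp14 at -0.67 ± 0.07 and the prolyl hydroxylase P4ha1 at -0.33 ± 0.06. The laminin gene Lamc1 (0.32 ± 0.06) was the 1 of 15 other basement membrane genes that passed. Of 21 other matrix genes 2 rose and 1 fell: elastin, Eln, rose by 0.92 ± 0.09, and Tnxb by 0.57 ± 0.08, while Mfap4 fell by 0.56 ± 0.08. Of 9 receptors and uptake genes the inhibitory collagen receptor gene Lair1 fell (-0.84 ± 0.18), and of 8 proteases Mmp14 rose (0.42 ± 0.09).

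The third comparison, deficient against wild type hosts in air, asked how the collagens of tumour tissue from deficient hosts differed without smoke. Of 44 collagen genes 6 were higher and 12 lower, where 38.5% of all genes passed (20.5% higher and 18.0% lower). The median was -0.08, against -0.03 over all genes. Fibrillar genes had 2 higher and 3 lower of 11, basement membrane genes 2 higher and 2 lower of 6, and other types 2 higher and 7 lower of 27. With median centring 5 collagen genes were higher and 15 lower. Over all genes 8523 passed with centring, against 7674 in the main fit.

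Col3a1 had the largest fibrillar difference. It was at 12.40, 12.49 and 12.61 in wild type air and 11.18, 10.90 and 11.23 in deficient air, lower by 1.40 ± 0.09 on the log2 scale (2.63-fold; adjusted p = 1.91e-07). Col5a1 was at 8.99 to 9.10 in wild type air and at 8.23, 8.06 and 8.14 in deficient air, a difference of -0.90 ± 0.07. Col1a2 and Col5a2 went the other way: Col1a2 was at 10.94, 10.93 and 10.91 in deficient air, 0.63 ± 0.06 above wild type (adjusted p = 2.64e-06), and Col5a2 at 8.01, 7.98 and 7.95, higher by 0.34 ± 0.06. None of these 4 genes overlapped between hosts, nor did 20 of 44 collagen genes in all, against 51.9% of all genes. Col1a1 was lower by 0.26 ± 0.09 with overlap, and its call was lost with the replicate block (adjusted p = 0.0603), in a fit of the 6 arrays alone (adjusted p = 0.0619) and without any 1 of 8 arrays, namely wild type air replicates 1 and 2 and all deficient replicates (-0.191 to -0.286; adjusted p = 0.0504 to 0.171). Within an array Col5a1 minus Col5a2 was 1.39 ± 0.09 in wild type air and 0.16 ± 0.07 in deficient air, a change of -1.23.

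Of the basement membrane chains, Col4a3 and Col4a4 were higher and Col4a1 and Col4a2 lower in deficient air. The wild type air arrays are shared with the comparison of smoke and air in wild type hosts. The opposite signs of the 2 comparisons are therefore not independent. Col4a3 was at 8.64, 8.63 and 8.58 in deficient air, higher by 0.54 ± 0.14 (adjusted p = 0.00851), and Col4a4 at 8.05, 8.14 and 8.00, higher by 0.39 ± 0.08, both without overlap. Col4a5 and Col4a6 were 0.18 higher each without passing. Col4a1, at 9.80, 9.73 and 9.69, and Col4a2, at 10.02, 9.92 and 9.94, were lower by 0.17 ± 0.06 and 0.18 ± 0.06. The Col4a1 call was lost in the fit of 6 arrays (adjusted p = 0.0521) and without 1 of wild type air 1 and 3, deficient air 2 and 3, and deficient smoke 2 (adjusted p = 0.0501 to 0.131). That of Col4a2 was lost without wild type air replicate 3 or deficient air replicate 2 or 3 (adjusted p = 0.0607, 0.0909 and 0.0747). Within an array the second network minus the first was -2.16 ± 0.06 in wild type and -1.61 ± 0.04 in deficient air.

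Col18a1, whose protein is cleaved to give endostatin, had the largest difference of any collagen gene in air. It was at 10.32, 10.24 and 10.22 in wild type and 8.93, 8.51 and 8.70 in deficient arrays, lower by 1.55 ± 0.12 (2.92-fold; adjusted p = 3.89e-07). Its relative Col15a1, at 6.96 to 7.09 in these 6 arrays, differed by 0.00. Col16a1, a FACIT collagen, was at 9.19, 9.29 and 9.28 in wild type and 8.24, 8.12 and 8.14 in deficient arrays, a difference of -1.09 ± 0.07. Col6a3, Col6a1 and Col6a2 were lower by 0.93 ± 0.09, 0.84 ± 0.07 and 0.80 ± 0.06, and Col8a1 by 0.43 ± 0.11, at 7.94, 7.56 and 7.79 in deficient air. Col14a1 was at 8.91, 8.89 and 8.96, higher by 0.53 ± 0.06. None of these genes overlapped between hosts except Col15a1. Col12a1 (-0.19 ± 0.07) and the transmembrane collagen Col13a1 (0.28 ± 0.10) passed narrowly. Col12a1 lost its call with an intensity trend, the replicate block, or without any 1 wild type air array or deficient air replicate 2 or 3, and Col13a1 with median centring (adjusted p = 0.0687), quantile normalization, or without wild type air replicate 1 or 3 or deficient air replicate 1 or 2.

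In the same comparison all 10 endothelial markers were higher in deficient arrays (10.92 to 10.96), as were all 9 alveolar markers (median difference 0.86), 6 of 8 smooth muscle and pericyte markers, 3 of 6 airway, 3 of 4 mesothelial and 6 of 7 macrophage markers. Fibroblast markers had 3 higher and 3 lower of 8 (9.47 to 9.63). Their part in the collagen differences was not tested.

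Processing genes were mostly lower here, with 17 of 29 lower and 8 higher. The procollagen C-proteinase Bmp1 was lower by 1.15 ± 0.09, its enhancer Pcolce by 0.93 ± 0.09 and Plod1 by 0.83 ± 0.06, while Fkbp14 was higher by 0.79 ± 0.07. Of 15 other basement membrane genes 6 were higher and 6 lower, with the laminin Lamb1 at -1.31 ± 0.11, perlecan, Hspg2, at -0.96 ± 0.07 and nidogen 1, Nid1, at -0.94 ± 0.07. Of 21 other matrix genes 11 were higher and 5 lower, among them thrombospondin 2, Thbs2, at -2.16 ± 0.14 and fibronectin, Fn1, at -1.03 ± 0.07, with Ccn2 at 1.17 ± 0.06. Of 9 receptors and uptake genes 3 were higher and 2 lower, with Itga1 at 1.04 ± 0.08 and the collagen-binding kinase Ddr2 at -0.62 ± 0.06. Of 8 proteases 3 were higher and 2 lower: Mmp13 was at -2.28 ± 0.14, Mmp14 at -1.25 ± 0.09 and cathepsin K, Ctsk, at 1.41 ± 0.16.

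Host genotype under smoke gave the widest differences. Of 44 collagen genes 8 were higher and 27 lower, where 59.6% of all genes passed (22.7% higher and 37.0% lower). The median was -0.31, against -0.14 over all genes. With median centring these medians were -0.45 and -0.28, and 7 collagen genes were higher and 32 lower. Over all genes 15529 passed with centring, against 11886 in the main fit. Fibrillar genes had 2 higher and 8 lower of 11 (median -0.39), basement membrane genes 3 higher and 2 lower of 6 (median 0.60), and other types 3 higher and 17 lower of 27 (median -0.32). The wild type smoke arrays are shared with the comparison of smoke and air in wild type hosts, so the opposite signs of the 2 comparisons are not independent.

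Col8a1 led the lower genes, at 9.36 to 9.43 in wild type smoke and 7.55, 7.34 and 7.68 in deficient smoke, a difference of -1.87 ± 0.11 (3.67-fold; adjusted p = 1.12e-08). Col18a1 was at 10.49, 10.52 and 10.61 against 9.23, 8.79 and 8.88 (-1.57 ± 0.12), and Col3a1 at 12.74, 12.72 and 12.76 against 11.26, 11.10 and 11.33 (-1.51 ± 0.09). Col6a3, Col6a2 and Col6a1 were lower by 1.39 ± 0.09, 1.15 ± 0.06 and 1.01 ± 0.07, Col1a1 by 1.27 ± 0.09, Col5a1 by 1.14 ± 0.07, Col16a1 by 1.06 ± 0.07 and Col5a3 by 0.85 ± 0.10. These 10 genes did not overlap between hosts, nor did 31 of 44 collagen genes in all, against 61.3% of all genes. For Col18a1, Col3a1 and Col16a1 the host difference in smoke less that in air was -0.03 ± 0.16, -0.12 ± 0.13 and 0.03 ± 0.10, and did not pass the test.

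Col1a2 had the largest difference upward, at 9.16 to 9.33 in wild type smoke and 10.86, 10.88 and 10.92 in deficient smoke, higher by 1.64 ± 0.06 (3.12-fold; adjusted p = 6.35e-11). Col4a3 was higher by 1.31 ± 0.14 (2.47-fold), at 8.57, 8.73 and 8.65, Col4a4 by 1.18 ± 0.08, at 8.25, 8.38 and 8.28, and Col4a5 by 0.93 ± 0.11, at 8.03, 8.02 and 8.02. Col14a1 was higher by 0.97 ± 0.06 and Col5a2 by 0.71 ± 0.06. None of these overlapped. Col4a1 and Col4a2 were lower by 0.31 ± 0.06 and 0.20 ± 0.06, and with median centring the latter differed by -0.343. Within an array the second network minus the first was -3.15 ± 0.22 in wild type and -1.76 ± 0.06 in deficient smoke, a change of 1.395 (1.271 without wild type smoke replicate 1), and Col1a1 minus Col1a2 was 2.59 ± 0.12 and -0.32 ± 0.02. Col12a1 was higher by 0.30 ± 0.07, but by 0.157 with median centring and 0.156 with quantile normalization. Col13a1 was higher by 0.32 ± 0.10, a call lost with median centring (adjusted p = 0.0668) and quantile normalization (adjusted p = 0.0971), and by 0.205 without wild type smoke replicate 1.

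The remaining lower genes had smaller differences. Col7a1 (-0.60), Col11a2 (-0.39), Col6a4 (-0.36), Col19a1 (-0.32) and Col17a1 (-0.28) were lower here and had risen with smoke in wild type hosts. The calls of Col17a1 and Col19a1 were lost in 5 and 1 of 21 alternatives. A further 10 genes passed in this comparison and in none of the other 3, all lower, with mean levels between 6.75 and 7.98. They were Col2a1 (-0.57), Col25a1 (-0.51), Col26a1 (-0.43), Col9a2 (-0.38), Col24a1 (-0.37), Col9a1 (-0.35), Col22a1 (-0.33), Col11a1 (-0.31), Col6a6 (-0.29) and Col6a5 (-0.27), against -0.14 for the median gene. In each, wild type smoke replicate 1 was the lowest array of its group. Leaving out wild type smoke replicate 2 reduced the count of collagen genes from 35 to 27 and leaving out replicate 1 raised it to 39. Calls over all genes moved the same way, from 11886 to 10339 and 13472. Col9a1, Col9a2, Col11a1, Col22a1 and Col24a1 lost their calls without replicate 2 or 3 of that group, and without deficient smoke replicate 1. Col11a1 and Col9a2 lost theirs in most other fits that left out 1 array too (adjusted p up to 0.194 and 0.159). Col6a5 lost its call without wild type smoke replicate 2 or 3, and Col6a6 without wild type smoke replicate 2 or deficient smoke replicate 2. Further, 9 genes passed in none of the 4 comparisons, namely Col4a6, Col8a2, Col9a3, Col10a1, Col15a1, Col20a1, Col23a1, Col27a1 and Col28a1. The share of all genes that passed under smoke alone, or in no comparison, is not given here. Whether these counts set collagen genes apart therefore cannot be told.

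**Figure D4:**
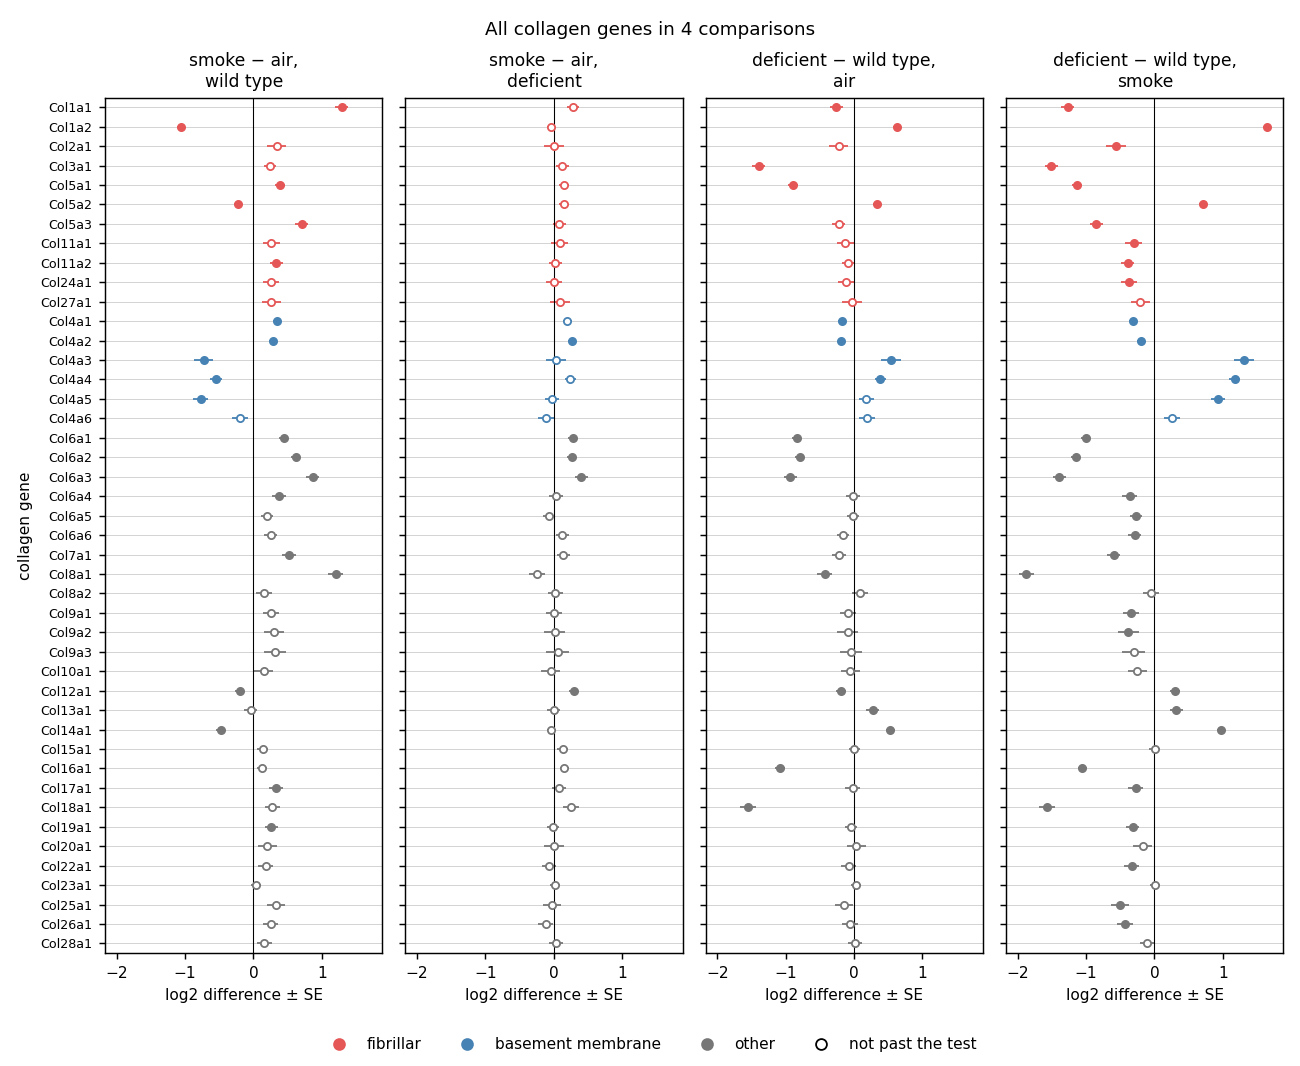
Log2 difference ± SE (horizontal axis) of all 44 collagen genes (rows) in 4 comparisons, coloured by class, filled where the adjusted p was under 0.05. Chains of type I, V and IV lie on both sides of 0 in wild type smoke against air and in both genotype comparisons, and differences are small in deficient smoke against air.

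All 10 endothelial markers (mean 10.89 to 11.07 in deficient and 8.76 to 8.83 in wild type smoke) and all 9 alveolar markers (median difference 3.59) were higher in deficient arrays under smoke. So were all 6 airway markers (9.93 to 10.01) and 6 of 8 smooth muscle and pericyte markers, with 1 lower (9.03 to 9.20). Macrophage markers had 5 of 7 lower, fibroblast markers 3 higher and 4 lower of 8, mesothelial markers 3 higher and 1 lower of 4, and cartilage markers 1 higher and 3 lower of 7. Their part in the collagen differences was not tested. Of 29 processing genes 8 were higher and 18 lower, with Pcolce2 at 2.60 ± 0.09, Loxl1 at 1.55 ± 0.07, Tmem38b at 1.83 ± 0.12 and Plod1 at -1.25 ± 0.06. Of 15 other basement membrane genes 6 were higher and 7 lower, with Lama3 at 2.72 ± 0.13, Lama2 at 2.39 ± 0.08, Lamb3 at 1.80 ± 0.10 and Nid1 at -1.09 ± 0.07. All 21 other matrix genes passed, 13 higher and 8 lower, with Prelp at 3.86 ± 0.13, Postn at 3.73 ± 0.12 and Bgn at 2.22 ± 0.07. Of 9 receptors and uptake genes 3 were higher and 2 lower, led by Itga1 at 2.32 ± 0.08, and of 8 proteases 3 were higher and 4 lower, led by Mmp2 at 2.93 ± 0.08.

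The smoke difference was then compared between hosts, as smoke minus air in deficient arrays less the same in wild type. Of 44 collagen genes 12 passed, 7 with a more positive and 5 with a more negative smoke difference in deficient arrays, where 14.6% of all genes passed (8.89% more positive and 5.70% more negative). Basement membrane genes had 3 more positive of 6, fibrillar genes 2 more positive and 2 more negative of 11, and other types 2 and 3 of 27. The 2 chains of type I differed by the same size and opposite sign: Col1a2 by 1.01 ± 0.08 (adjusted p = 1.71e-06) and Col1a1 by -1.01 ± 0.13 (adjusted p = 1.04e-04). Col8a1 had the largest value, -1.45 ± 0.16 (adjusted p = 2.44e-05), with a rise of 1.20 in wild type and a difference of -0.24 in deficient arrays. Col4a4, Col4a3 and Col4a5 differed by 0.79 ± 0.12, 0.77 ± 0.20 and 0.75 ± 0.15, while Col4a1 and Col4a2, at -0.14 and -0.02, did not pass. The Col4a3 value was 0.428 with array weights, and its call was lost without the third wild type air or deficient air array or deficient smoke replicate 2 (adjusted p = 0.0569, 0.0536 and 0.06).

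Col12a1 fell with smoke in wild type and rose in deficient arrays, a difference of 0.49 ± 0.10 (adjusted p = 0.00283). Among the type VI chains Col6a3 differed by -0.46 ± 0.13 and Col6a2 by -0.35 ± 0.09, and Col6a1 at -0.16 did not pass. The Col6a3 call was lost in 8 of the 12 fits that left out 1 array, all but those without wild type air replicate 1, wild type smoke replicate 1 or 3 or deficient smoke replicate 1 (adjusted p = 0.0515 to 0.0957). Without wild type smoke replicate 1 the count of collagen genes that passed was 25, with 7 more positive and 18 more negative, and with quantile normalization 7 and 8. Over all genes 4969 and 3563 passed in these fits, against 2909 in the full fit. All 9 alveolar and all 10 endothelial markers had a more positive and all 7 macrophage markers a more negative smoke difference in deficient arrays. Fibroblast markers had 3 more positive and 2 more negative of 8, and smooth muscle and pericyte markers 5 and 1 of 8. Airway markers had 3 of 6 and mesothelial markers 1 of 4 more positive, and cartilage markers 1 more positive and 1 more negative of 7. Their part in the collagen differences was not tested.

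Of related genes, 7 of 29 processing genes were more positive and 4 more negative, with Pcolce2 at 1.89 ± 0.13, Loxl1 at 1.15 ± 0.09, Lox at 0.98 ± 0.15 and P3h2 at 0.93 ± 0.12. Of 15 other basement membrane genes 6 were more positive and 1 more negative, with Lama3 at 2.04 ± 0.19 and Nid2 at -0.68 ± 0.10. Of 21 other matrix genes 11 were more positive and 2 more negative, led by Postn at 2.84 ± 0.17. Of 9 receptors and uptake genes 2 were more positive, with Itga1 at 1.28 ± 0.11 and Mrc2 at 0.89 ± 0.11, and 2 more negative, and of 8 proteases 3 were more positive, with Mmp2 at 2.41 ± 0.11.

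**Figure D5:**
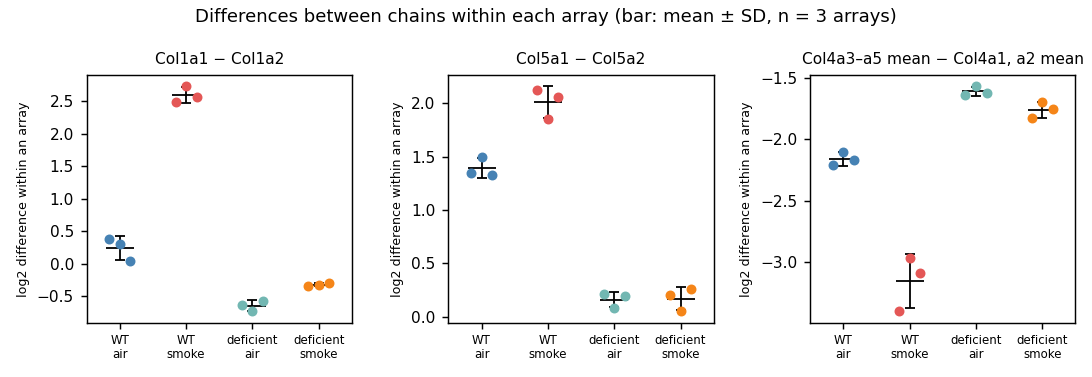
Difference between collagen chains within each array (vertical axis, log2 units) by group (WT, wild type), with bars for mean ± SD over 3 arrays. Col1a1 minus Col1a2 ran from -0.73 in deficient air to 2.73 in wild type smoke, and wild type smoke was the extreme group in all 3 panels.

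Set side by side over the 4 groups, the within-array difference of Col1a1 and Col1a2 was -0.65 ± 0.08 in deficient air, -0.32 ± 0.02 in deficient smoke, 0.24 ± 0.18 in wild type air and 2.59 ± 0.12 in wild type smoke. No 2 neighbouring groups in this order overlapped. The difference of Col5a1 and Col5a2 followed a similar order, but its deficient groups overlapped (0.16 ± 0.07 and 0.17 ± 0.11). The differences between the chains of type I and of type V were added after the gene values were seen, and none of the within-array differences carries a test.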

How the data were processed

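The authors deposited 1 log2 value per probe set and array, which the submitters' processing notes credit to RMA and Affymetrix Expression Console. RMA subtracts background, quantile-normalizes and combines the probes of a set. No version, genome build or detection call is given in the sources used here. The table held 34760 probe sets. Those that the platform annotation gave 1 gene symbol (21640) were kept, and each gene took the probe set of highest mean, which gave 19937 genes. The 44 collagen genes had 46 probe sets, Col6a5 and Col6a6 having 2 each. All 44 symbols were found in a gene table of GRCm38.p6, which served only for names.

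All 12 arrays entered 1 group-means model in limma 3.58.1 (R 4.3.3; residual df 8, prior df 4.83) with 5 contrasts, 2-sided moderated tests and Benjamini-Hochberg adjustment over all genes of a contrast. SDs are over 3 arrays, whose number limits the precision. The members, gene lists and tests were chosen with earlier results of these data known. Collagen genes given values were those of types I, III to VI, XV and XVIII, the largest changes up to 4 each way per comparison, and others by counts or ranges. From related lists up to 4 genes of smallest p were named. Further members were named after their values were seen. Alternatives were median centring and quantile normalization, both applied to the table of 19937 genes rather than to all probe sets. Others were an intensity filter (15007 genes that reached log2 6 in 3 or more arrays), mean of probe sets and every probe set. Further ones were an intensity trend, array weights, the replicate number as a block, the 6 arrays of a comparison alone, and each array left out in turn. On simulated data for smoke against air in wild type hosts over 19937 genes, 68 of 100 genes shifted by 0.5 and 95 of 100 shifted by 1 were called, with 9 of 19737 unshifted. The simulation drew errors independently for each gene, without deviations shared across an array, so these rates may not hold for the real arrays. Same-numbered arrays did not deviate together in every pair (r from -0.36 to 0.37 across genes), so replicate numbers were not taken as pairs. Probe sets with several genes or none were left out. R, limma, Python 3.11.15 and matplotlib 3.10.9 were used.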

Additional observations from a re-analysis of the deposited data

Results flagged for a closer look

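The smoke difference (smoke minus air) differed between deficient and wild type hosts for 12 collagen genes, by limma's interaction test with Benjamini-Hochberg adjustment over all genes. It was more negative in deficient arrays for Col8a1 (-1.45), Col1a1 (-1.01), Col5a3 (-0.63), Col6a3 (-0.46) and Col6a2 (-0.35). It was more positive for Col1a2 (1.01), Col4a4 (0.79), Col4a3 (0.77), Col4a5 (0.75), Col12a1 (0.49), Col14a1 (0.44) and Col5a2 (0.37). Of all genes 14.6% passed this test. Groups of 3 arrays are too small for a test of single outlying arrays.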

How the results depend on the processing

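Of 91 collagen differences past the test in 5 comparisons, 63 passed in all alternatives run and 28 were lost in at least 1. None changed sign while called. For smoke against air in wild type hosts the count of collagen genes was 21, and 36 with median centring and 37 with array weights (15 to 37 with 1 array left out). In deficient hosts it was 5, and 8 with array weights and 1 with the replicate block (0 to 5 with 1 array left out). For the difference between hosts in the smoke effect it was 12, and 29 with array weights (10 to 25). For host genotype it was 18 in air (13 to 20) and 35 under smoke (27 to 39). Over all genes, the first comparison had 5778 calls, 9852 with median centring and 10211 with array weights. With 1 array left out, all-gene calls were 3695 to 8824 there and 261 to 717 for smoke in deficient hosts. They were 2239 to 4969 for the difference between hosts in the smoke effect. For host genotype they were 6451 to 8579 in air and 9853 to 13472 under smoke. The replicate block changed no other count by over 1.5 times. The within-array change of the α3, α4 and α5 chains of type IV against α1 and α2 was -1.087 to -0.873 for smoke in wild type hosts and 1.271 to 1.485 for genotype under smoke with 1 array left out. RMA values carry no detection call, so whether dim genes such as Col10a1 (5.56 to 6.17) lay above background is not known.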
